A study of Mus musculus with 2 samples.

Results

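The genes of interferon signalling and MHC class I antigen presentation were examined in 4T1 cells exposed to astragalin (AS). A total of 59 genes were chosen by symbol to cover the pathway from its receptors to its induced genes, and 56 of them had a row among the 14197 genes of the deposited table. Ddx58, Iigp1 and Ifi47 had no row under these symbols in the table used here and were dropped. The 56 genes fell into 18 signalling genes, 14 antigen presentation genes and 24 interferon-stimulated genes. 4T1 is a mouse mammary carcinoma line, labelled wild type, and AS is a flavonoid glycoside from plants. Cells of the AS group received 20 μM AS for 24 h and cells of the control group received the vehicle, and each group is 1 RNA-sequencing library of this single line in culture. The study also made luciferase-labelled 4T1 cells, and whether the sequenced cells carried that label is not stated. The sequencing was done to ask how AS inhibits the growth of these cells.

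Interferons are cytokines that cells release on infection. Type I interferons bind the receptor made of Ifnar1 and Ifnar2, and interferon-gamma binds Ifngr1 and Ifngr2. Both receptors signal through JAK kinases to STAT and IRF transcription factors, which turn on antiviral genes and the machinery that loads peptides onto MHC class I molecules. Class I molecules show peptides from inside the cell to CD8+ T cells, and tumor cells with low class I levels are poorly seen by these T cells.

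Levels are given as RPKM, reads scaled by exon length and by the size of the library, as the authors made them. The RPKM values stood for 44816167 whole reads on genes under AS and 50723249 under vehicle, and the 56 genes had from 23 to 20090 reads per library. Each fold change is the log2 of the AS level over the vehicle level, with 0.1 RPKM put on top of both. With 1 library per condition there was no replicate check and no p-value, and culture-to-culture differences cannot be told apart from the effect of AS. A gene was called when it passed 2-fold or, by a second rule, 1.5-fold (0.58 on the log2 scale). The 95% Clopper-Pearson intervals belong to the ratio of the reads without the added amount, and they cover counting error only. The epithelial markers Epcam (335 RPKM under AS and 357 under vehicle), Krt8 (372 and 540 RPKM) and Krt18 (707 and 902 RPKM) were abundant. Within that list of 9 epithelial markers, Krt14 and Krt19 were lower with AS beyond 1.5-fold, with log2 fold changes of -0.96 and -0.73, and their part in the results was not tested. Leukocyte markers gave 5 rows out of 14, with Ptprc at 0.116 and 0.114 RPKM and Cd68 at 24.0 and 28.1 RPKM. Of 8 fibroblast markers 3 had a row, and of 5 endothelial markers 0 had one. In RNA from whole cultures, fewer cells of a type and less RNA per cell cannot be told apart.

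None of the 56 genes was called at 2-fold in either direction, and 2 of them were called higher with AS at 1.5-fold. Both were genes near the bottom of the measured range, the antiviral GTPase gene Mx1 and the feedback inhibitor gene Socs1. Their vehicle reads, 23 and 26, were below 29.5, the lowest mean of both libraries among genes with whole reads. With as few reads in both libraries they would lie under that mean. Their upward ratios therefore cannot be separated from how genes entered the table. None of the 56 was lower by as much. Across all measured genes, 0.662% of genes were higher and 0.31% lower beyond 2-fold, and 3.56% were higher and 2.01% lower beyond 1.5-fold. The count of called genes among the 56 was close to that background. It leaves out the interferon-induced guanylate-binding protein genes, which are not among the 56. Of the 10 with a row, 5 were higher beyond 1.5-fold and 4 beyond 2-fold, as given below. The median log2 fold change of the 56 genes was 0.14, beside 0.066 for all genes. Their range was narrow, from -0.23 for Usp18 to 0.98 for Mx1, with the quartiles at -0.035 and 0.25. With counting error alone, 29 of the 56 genes had an interval wholly above 0 and 4 had one wholly below it, where 37.6% and 19.8% of all genes did. Against the median of all genes, 18 of the 56 had an interval wholly above and 11 wholly below, where 27.6% and 27.9% of all genes did. The 56 genes had more reads per gene (median 1186.5, beside 886.75 for all genes), which narrows their intervals. In all, 36 genes were higher and 20 lower with AS at any size, where 60.9% of the whole table was higher. Of the 56 genes, 43 lay within 1.2-fold of equal levels, as did 68.9% of all genes.

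**Figure D1:**
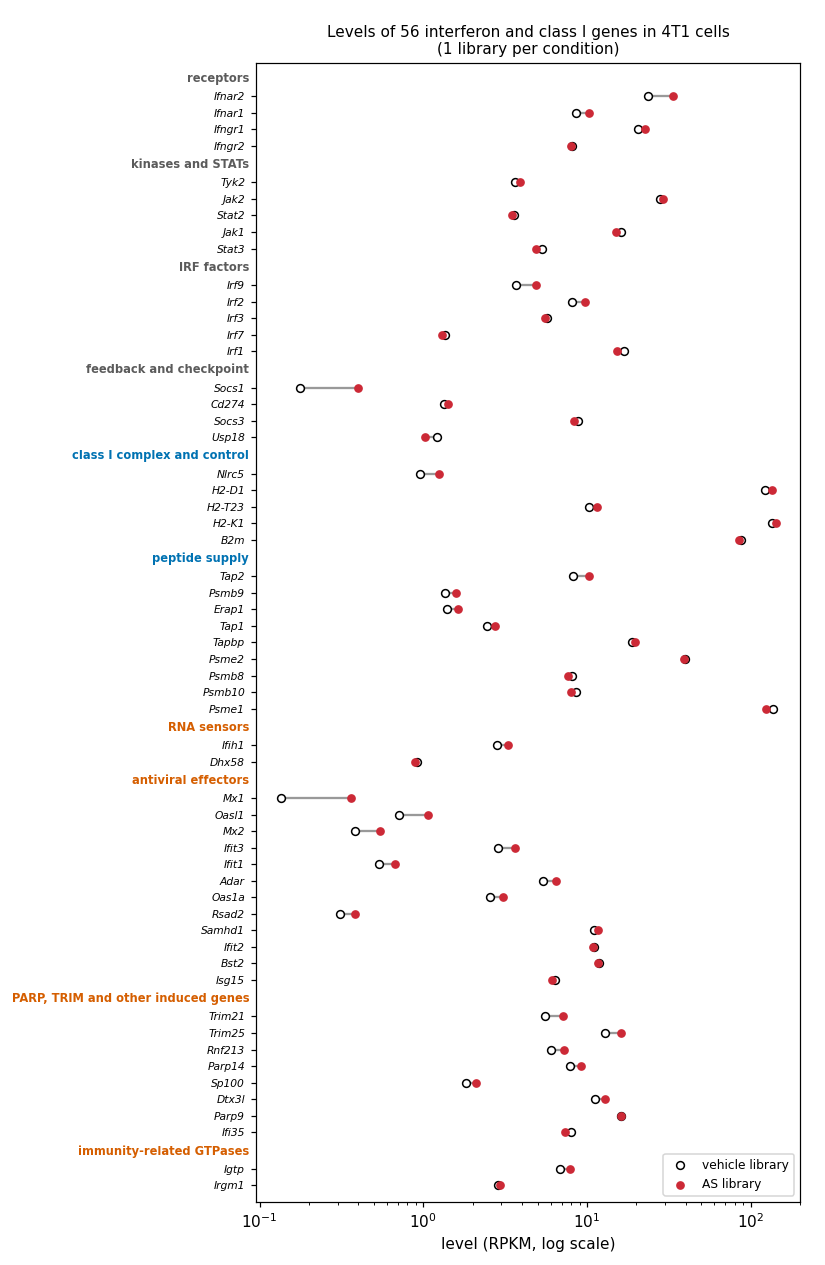
Levels of the 56 genes in RPKM on a log axis, with the vehicle library as open circles, the AS library as filled circles and a line joining them, 1 row per gene and 1 library per condition. The circles of most genes nearly touch, and the widest gaps are those of Mx1 (0.134 and 0.363 RPKM) and Socs1 (0.176 and 0.398 RPKM).

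The 56 genes spanned a wide range of levels. The class I heavy chain genes H2-K1 and H2-D1, the proteasome activator gene Psme1 and B2m, the light chain of class I, were the most abundant. Interferon-stimulated genes were far less abundant, and the highest of them by the mean of both libraries, Parp9, had 16.1 RPKM under AS and 16.2 under vehicle. The median level per length was 10.9 RPKM under AS and 9.47 under vehicle for antigen presentation genes, and 6.28 and 5.44 for interferon-stimulated genes. The plot of levels by gene shows that Mx1, Socs1, Rsad2, Mx2, Ifit1 and Dhx58 stayed under 1 RPKM in both libraries.

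A common feature of many interferon-stimulated promoters is the interferon-stimulated response element, a site for STAT and IRF complexes. Its core was searched as GAAA, any 2 bases and GAAA again, on both strands, in windows from 250 bases before to 50 bases after the RefSeq start sites (GRCm38.p6). Of 48 genes with such a window, 17 held the core (35.4%), beside 3.69% of the 9680 genes of the table with a window. These 17 genes had log2 fold changes from -0.15 to 0.85 with a median of 0.22, and the median was 0.065 for those without the core, beside 0.091 and 0.073 over all genes with a window. Within antigen presentation genes the medians were 0.052 with the core and 0.063 without it, and within interferon-stimulated genes 0.23 and 0.20. Within signalling genes they were 0.25 and 0.019, where only 3 genes held the core, with log2 fold changes from -0.043 to 0.85. The STAT core, TTC and GAA with any 3 bases between them, was held by 13 of the 48 genes, beside 8.12% of all genes, and its holders had a median log2 fold change of 0.063, beside 0.13 for the others. Overlaps between matches were allowed, and a match describes letters in the window and not a bound site. The upstream 250 bases of 3 promoters with the core are shown because they share the core while their fold changes differ, a choice made after the values were seen, with capitals marking the stretch covered by matches of the core.
Socs1, chr16:10785537-10785786, minus strand: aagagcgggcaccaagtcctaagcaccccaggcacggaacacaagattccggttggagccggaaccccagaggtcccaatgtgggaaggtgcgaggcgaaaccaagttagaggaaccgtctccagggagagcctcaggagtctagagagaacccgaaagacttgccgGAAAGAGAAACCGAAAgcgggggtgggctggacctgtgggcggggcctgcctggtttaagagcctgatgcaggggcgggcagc
Isg15, chr4:156200819-156201068, minus strand: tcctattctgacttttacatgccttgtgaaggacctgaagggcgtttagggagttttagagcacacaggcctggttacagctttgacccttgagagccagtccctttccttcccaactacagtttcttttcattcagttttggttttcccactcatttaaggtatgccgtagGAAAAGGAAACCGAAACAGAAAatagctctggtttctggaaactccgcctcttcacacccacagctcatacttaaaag
B2m, chr2:122147437-122147686, plus strand: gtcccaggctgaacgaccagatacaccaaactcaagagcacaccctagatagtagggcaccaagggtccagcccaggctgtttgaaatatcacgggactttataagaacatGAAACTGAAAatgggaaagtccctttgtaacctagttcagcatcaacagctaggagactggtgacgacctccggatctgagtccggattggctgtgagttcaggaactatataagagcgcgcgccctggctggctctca
Socs1 and Isg15 both hold the same 10 bases, GAAACCGAAA, at 77 and 72 bases before the start. Their log2 fold changes were 0.85 and -0.054, and that of B2m was -0.044.

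Among the receptors, the type I chain Ifnar2 had the largest difference. It was at 33.3 RPKM under AS and 23.5 under vehicle, from 4976 and 3975 reads, giving a log2 fold change of 0.50 with an interval from 0.44 to 0.56. Its partner chain Ifnar1 was at 10.3 and 8.53 RPKM (log2 fold change 0.28, interval 0.20 to 0.36). The interferon-gamma receptor chains differed less, with 22.5 and 20.6 RPKM for the ligand-binding chain Ifngr1 (0.13) and 8.004 and 8.09 RPKM for Ifngr2 (-0.016). Ifnar2, Ifnar1 and Ifngr2 lie close together on chromosome 16 of GRCm38, where the GENCODE M21 annotation places Ifnar2 from 91372783 to 91405589, Ifnar1 from 91485238 to 91507441 and Ifngr2 from 91547072 to 91565623. The intervals of these 3 genes did not overlap. The build that the authors used is not known to be GRCm38, and the exons of Ifnar2 share 315 bases with another annotated gene on the same strand. No receptor passed 1.5-fold.

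Kinase and STAT genes were nearly level between the libraries, with log2 fold changes from -0.11 to 0.11 over 5 genes. Jak2, which serves the interferon-gamma receptor, was the highest of them with 29.1 RPKM under AS and 28.0 under vehicle. Jak1, used by both receptors, was at 15.1 and 16.1 RPKM, a log2 fold change of -0.088 with an interval from -0.14 to -0.034. Stat3, a STAT better known for interleukin-6 signalling, was at 4.90 and 5.29 RPKM (-0.11), and Tyk2, the type I receptor kinase, was at 3.91 and 3.61 RPKM (0.11). Stat2, the STAT of the type I complex, had 3.47 RPKM under AS and 3.58 under vehicle (-0.043).

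The IRF factors differed among themselves. Irf9, which joins STAT proteins in the complex that binds the response element, was at 4.91 RPKM under AS and 3.69 under vehicle, a log2 fold change of 0.40 with an interval from 0.29 to 0.53. Irf2, a factor that often represses the same sites, was at 9.68 and 8.12 RPKM (0.25). Irf1, an early interferon-gamma target and the most abundant of the 5, was lower with AS, at 15.3 RPKM against 16.9 under vehicle, a log2 fold change of -0.14 with an interval from -0.21 to -0.068. Irf3 (5.51 and 5.68 RPKM) and Irf7 (1.31 and 1.36 RPKM), which start interferon transcription, had log2 fold changes of -0.045 and -0.046. So Irf9 and Irf2 were higher with AS and Irf1 was lower. The intervals of Irf3 (-0.18 to 0.088) and Irf7 (-0.31 to 0.21) included 0, so their differences were within counting error. None of the 5 passed 1.5-fold.

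Of the feedback genes, Socs1 stood out by its ratio and by its low level. Socs1, a JAK inhibitor on chromosome 16 from 10782240 to 10785536, had 0.398 RPKM under AS and 0.176 under vehicle, from 52 and 26 reads. Its log2 fold change was 0.85, and the log2 ratio of its reads per library size, without the added amount, was 1.18 with an interval from 0.47 to 1.92. Socs3, another JAK inhibitor and the most abundant of this group, was at 8.29 and 8.81 RPKM (-0.088). Usp18, which removes Isg15 from proteins and blocks Ifnar2 signalling, had the lowest log2 fold change of all 56 genes, -0.23, at 1.02 RPKM under AS and 1.21 under vehicle and with an interval from -0.59 to 0.091. The checkpoint ligand gene Cd274, which encodes PD-L1, was at 1.41 and 1.35 RPKM, a log2 fold change of 0.065 with an interval from -0.20 to 0.33. Socs1 and Socs3, the SOCS genes among the 56, thus had different ratios. The intervals of Socs3 (-0.21 to 0.029), Usp18 and Cd274 included 0, so their differences were within counting error.

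**Figure D2:**
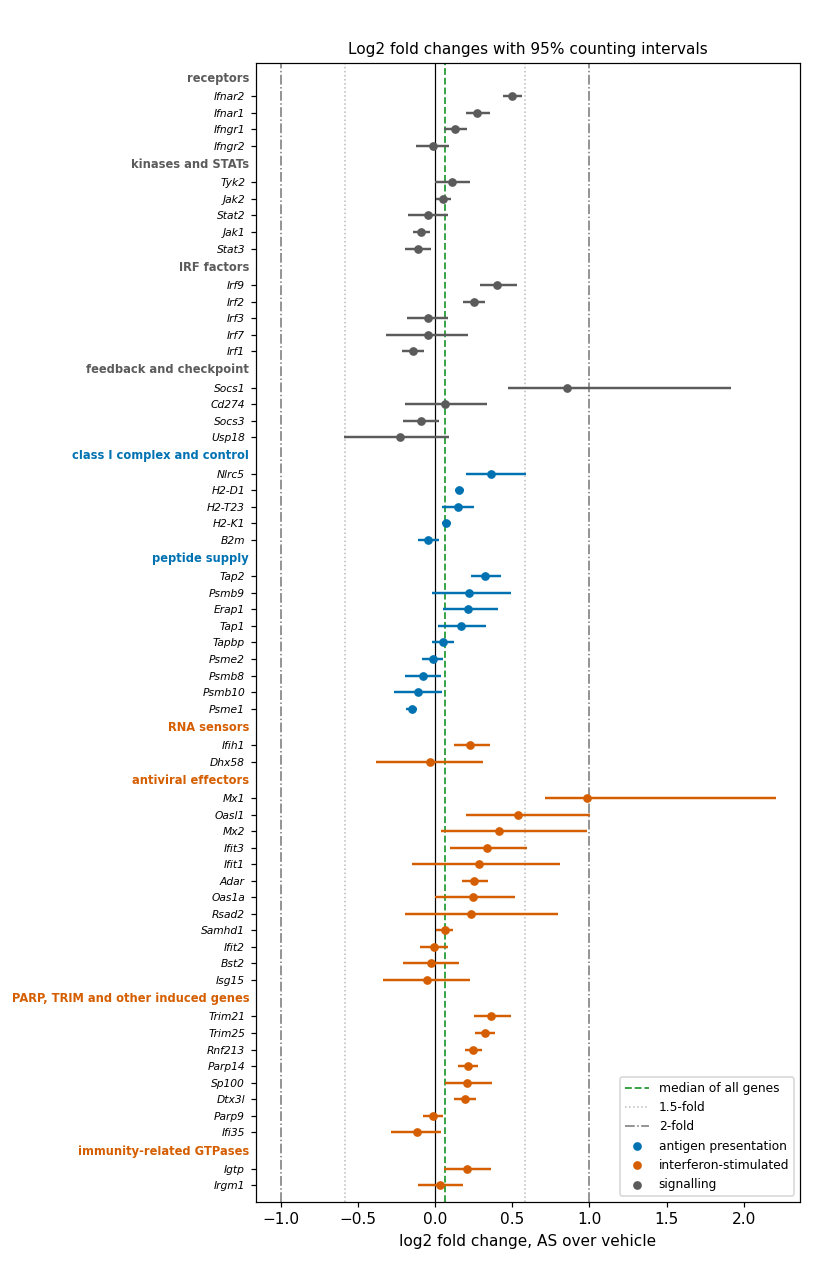
Log2 fold changes of AS over vehicle for the 56 genes (points, 0.1 RPKM added) with the 95% counting intervals of the read ratio without an added amount (lines), grouped by role, with dotted lines at 1.5-fold, dash-dotted lines at 2-fold and a dashed line at the median of all genes, 0.066. Only the points of Mx1 and Socs1 lie past 1.5-fold, and their lines are the widest.

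The class I molecule itself differed little. H2-K1 was at 142 RPKM under AS and 135 under vehicle (log2 fold change 0.073, interval 0.045 to 0.10), and H2-D1 was at 135 and 121 RPKM (0.16, interval 0.13 to 0.19). H2-T23, the nonclassical chain known as Qa-1, was at 11.46 and 10.3 RPKM (0.15). B2m was at 84.6 RPKM under AS and 87.3 under vehicle, a log2 fold change of -0.044 with an interval from -0.11 to 0.024. The 3 heavy chain genes together summed to 289 and 266 RPKM. H2-K1 lay at about the median of all genes, with a log2 fold change of 0.0074 after centring on that median and 0.0050 under TMM scaling, and of the heavy chains H2-D1 alone had an interval wholly above it. Nlrc5, the transactivator of class I genes, was at a low level, 1.25 RPKM under AS and 0.9499 under vehicle, with the largest log2 fold change of the 14 antigen presentation genes, 0.36 (interval 0.20 to 0.59). Class I heavy chain genes are polymorphic and have close copies, and how reads shared between copies were counted is not stated.

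Genes that make and move the peptides were mixed. Tap2, a chain of the transporter that carries peptides into the endoplasmic reticulum, was at 10.3 RPKM under AS and 8.20 under vehicle (0.33, interval 0.23 to 0.43). Its partner Tap1 was at 2.76 and 2.44 RPKM (0.17), and Tapbp, the tapasin gene that bridges the transporter and class I, was at 19.6 and 18.9 RPKM (0.052). Erap1, the peptidase that trims peptides, was at 1.63 and 1.39 RPKM (0.22). All of these were higher with AS at sizes under 1.5-fold, except that Tapbp turned slightly lower (down to -0.016) under upper-quartile scaling, TMM scaling and centring on the median of all genes.

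The immunoproteasome genes did not share that direction as a group, with a median log2 fold change of -0.076. The proteasome activator genes Psme1 and Psme2 encode the chains of PA28. Psme1, the most abundant gene of peptide supply, was at 124 RPKM under AS and 137 under vehicle, a log2 fold change of -0.15 with an interval from -0.19 to -0.12, and Psme2 was at 39.0 and 39.4 RPKM (-0.015). The inducible catalytic subunit genes Psmb8 (7.65 and 8.07 RPKM) and Psmb10 (7.98 and 8.61 RPKM) had log2 fold changes of -0.076 and -0.11, and Psmb9 (1.59 and 1.35 RPKM) had 0.22 with an interval from -0.021 to 0.49. Thus 4 of these 5 genes were lower with AS, each within 1.2-fold, where 5555 of all 14197 genes were lower. Only Psme1 had an interval wholly below 0. The intervals of Psme2 (-0.085 to 0.055), Psmb8 (-0.19 to 0.037) and Psmb10 (-0.27 to 0.047) included 0. The constitutive subunits that Psmb8, Psmb9 and Psmb10 replace were more abundant and were lower with AS. They had 25.1 and 28.5 RPKM for Psmb5, 17.05 and 20.4 for Psmb6, and 27.9 and 31.7 for Psmb7. As a share of each pair by RPKM, Psmb8 made up 23.3% under AS and 22.05% under vehicle, Psmb9 8.52% and 6.20%, and Psmb10 22.3% and 21.4%. By RPKM the constitutive subunit was the higher of each pair in both libraries. These shares depend on the exon lengths used for RPKM, and by reads Psmb8 (1162 under AS and 1387 under vehicle) exceeded Psmb5 (1015 and 1304). Psmb9 and Tap1 are divergent neighbours on chromosome 17 whose annotated exons overlap by 212 bases on opposite strands, and the strand setting of the counting is not stated.

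RNA sensors showed no large difference. Ifih1, the gene of MDA5, was at 3.31 RPKM under AS and 2.80 under vehicle (0.23), and Dhx58, the gene of LGP2, was at 0.891 and 0.914 RPKM (-0.033). The table also lists a gene as Rigi, the newer symbol of Ddx58, and the exon length implied by its values, 7050 bases, is the one that GENCODE M21 gives for Ddx58. Rigi was at 4.22 and 4.05 RPKM, a log2 fold change of 0.058 with an interval from -0.049 to 0.17.

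The antiviral effectors held the largest ratio of the 56 genes. Mx1, whose product blocks influenza viruses in the nucleus and which many inbred mouse strains carry as a truncated allele, lies on chromosome 16 from 97447035 to 97462907. It had 0.363 RPKM under AS and 0.134 under vehicle, from 55 and 23 reads. Its log2 fold change was 0.98, and the log2 ratio of its reads per library size was 1.44 with an interval from 0.71 to 2.21. Without the added 0.1 RPKM, Mx1 and Socs1 both passed 2-fold, as did 1.13% of all genes upward. Its neighbour Mx2 had 0.542 and 0.381 RPKM, from 88 and 70 reads (0.42, read ratio 0.51 with an interval from 0.039 to 0.98). Oasl1, an oligoadenylate synthetase-like gene, was at 1.08 and 0.709 RPKM, from 126 and 94 reads (0.54, read ratio 0.60 with an interval from 0.20 to 1.0).

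Of the effectors at higher levels, 4 had log2 fold changes close to 0. Isg15, the ubiquitin-like modifier and a widely used interferon readout, was at 6.14 RPKM under AS and 6.38 under vehicle, from 194 and 228 reads, giving a log2 fold change of -0.054 with an interval from -0.34 to 0.23. Bst2, the tetherin gene, was at 11.7 and 11.9 RPKM (-0.026), and Ifit2, which binds viral RNA, was at 10.9 and 10.96 RPKM (-0.0070). Samhd1, a dNTP hydrolase, was at 11.6 and 11.1 RPKM (0.063). The other 5 effectors, Rsad2, Oas1a, Adar, Ifit1 and Ifit3, had log2 fold changes from 0.23 to 0.34, and among them the RNA-editing enzyme gene Adar was as abundant as Isg15, at 6.42 and 5.36 RPKM (0.26, interval 0.18 to 0.34). Of the 12 effectors, 9 were thus higher and 3 lower with AS at any size. The intervals of the 3 lower ones, Isg15, Bst2 (-0.21 to 0.15) and Ifit2 (-0.096 to 0.082), include 0, as do those of Ifit1 (-0.15 to 0.81) and Rsad2 (-0.19 to 0.80). Reads of Ifit3 and Oas1a are uncertain, since both genes have near-identical copies.

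Of the 8 PARP, TRIM and other induced genes, 6 were higher and 2 lower with AS. Trim21, an intracellular antibody receptor, was at 7.14 RPKM under AS and 5.52 under vehicle (0.37, interval 0.25 to 0.49). Trim25, the ligase that activates RIG-I, was at 16.1 and 12.9 RPKM (0.32, interval 0.26 to 0.39). Both intervals lay wholly above the median of all genes, and neither gene passed 1.5-fold. Parp9 and Dtx3l encode partners in 1 complex and start from adjacent sites on chromosome 16. Parp9 was level (-0.014), and Dtx3l was at 12.8 RPKM under AS and 11.2 under vehicle (0.20, interval 0.13 to 0.27). Their annotated exons overlap by 458 bases on opposite strands. Ifi35 was lower, at 7.30 and 7.93 RPKM (-0.12, interval -0.28 to 0.042), and Sp100, Parp14 and Rnf213 lay between 0.20 and 0.25. The immunity-related GTPases Igtp (7.91 and 6.82 RPKM) and Irgm1 (2.92 and 2.85 RPKM), which act on vacuoles that hold pathogens, had log2 fold changes of 0.21 and 0.035.

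Set against each other, antigen presentation genes and interferon-stimulated genes differed little. The log2 fold changes had a median of 0.11 for the 14 antigen presentation genes and 0.22 for the 24 interferon-stimulated genes, a difference of -0.11, and 0.019 for the 18 signalling genes. Antigen presentation genes were higher with AS in 9 of 14 cases and interferon-stimulated genes in 18 of 24, beside the 60.9% of all genes. Past 1.5-fold there were 0 and 1 genes. With counting error as the yardstick, 10 of the 24 interferon-stimulated genes had an interval wholly above the median of all genes and 2 had one wholly below it, and among antigen presentation genes there were 3 and 5. Among all measured genes, 27.6% of genes lay wholly above that median and 27.9% wholly below it. Genes are not replicates, so the difference between both groups was not tested.

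**Figure D3:**
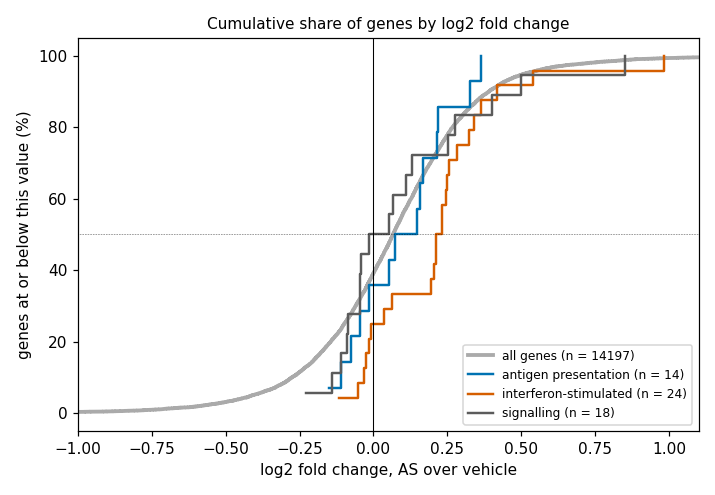
Cumulative share of genes in percent at or below each log2 fold change of AS over vehicle, for all 14197 genes (the axis covers those from -1 to 1.1), 14 antigen presentation, 24 interferon-stimulated and 18 signalling genes. The curve of the interferon-stimulated genes lies to the right of that of all genes over most of its middle range, with medians of 0.22 and 0.066, and the curve of the antigen presentation genes, with a median of 0.11, is closer to it.

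Part of the higher values belonged to genes with few reads. The 7 genes with a mean under 1 RPKM, which were Mx1, Socs1, Oasl1, Mx2, Ifit1, Rsad2 and Dhx58, had a median log2 fold change of 0.42, and both genes past 1.5-fold were among them. Of the 1973 genes of the table at such levels, 8.57% were higher beyond 1.5-fold, and their median was 0.096. The other 49 genes had a median of 0.073, beside 0.063 for all genes of at least 1 RPKM, and none of them passed 1.5-fold. By group, interferon-stimulated genes of at least 1 RPKM had a median of 0.21, beside 0.22 for all 24 of them. The antigen presentation median of 0.11 could not move, since none of the 7 low genes belongs to that group.

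**Figure D4:**
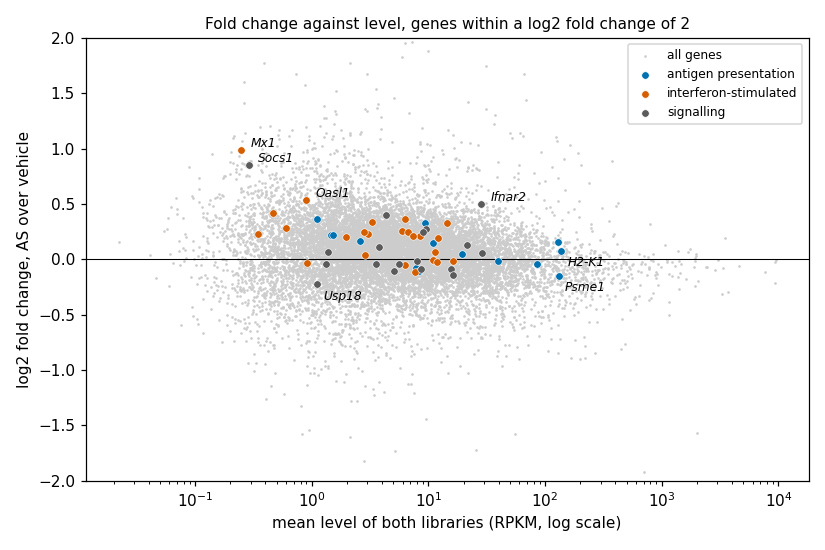
Log2 fold change of AS over vehicle against the mean level of both libraries in RPKM (log axis), with every gene within a log2 fold change of 2 in grey and the 56 genes coloured as signalling, antigen presentation or interferon-stimulated. Mx1 and Socs1 sit at the upper left, under 1 RPKM, and the abundant H2-K1 and Psme1 lie close to 0 at the right.

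Other genes of the pathway, taken from lists written beside the 59 genes, are given by their counts. Of 46 further interferon-stimulated genes, 36 had a row, and 2 were higher beyond 1.5-fold and 0 lower, with a median of 0.061. These 2 were Slfn2, a growth-regulating Schlafen gene at 19.3 RPKM under AS and 10.9 under vehicle (0.82, interval 0.70 to 0.94), and Ifit3b, a near-identical copy of Ifit3 at 1.51 and 0.767 RPKM (0.90, interval 0.57 to 1.40). Slfn2 had 1442 and 922 reads. Neither these lists nor the 59 genes hold the guanylate-binding proteins, interferon-induced GTPases that act against pathogens inside cells, which were added after their values were seen. All 10 such genes with a row were higher with AS, 5 of them beyond 1.5-fold and 4 beyond 2-fold. The most abundant of the 5 was Gbp9, at 14.2 and 7.46 RPKM from 3302 and 1962 reads (0.92, interval 0.85 to 1.01), and Gbp4, at 2.46 and 0.793 RPKM, had the largest log2 fold change, 1.52. These genes have close copies, and how reads shared between copies were counted is not stated. The small differences given for the 56 genes therefore do not describe every interferon-stimulated gene. Further class I and folding genes numbered 14, all with a row, and 0 passed 1.5-fold, with a median of -0.0071. The genes of sensing upstream of interferon had 11 rows out of 20, other regulators 24 out of 25 and class II genes 1 out of 9, and 0 of these passed 1.5-fold. The medians of the first 2 of these lists were 0.042 and 0.14. The sensing list also held the interferon genes Ifnb1, Ifna2, Ifna4, Ifng, Ifnk, Ifnl2 and Ifnl3, and none of them had a row. Their levels are therefore not known here. Tmem173 and Mb21d1 of the same list are older symbols of Sting1 and Cgas, which had rows under the newer symbols.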

How the data were processed

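RNA of 1 AS library and 1 vehicle library was sequenced by the study. The submitters' processing notes name fastp 0.23.4, STAR 2.5.3a, featureCounts and the build GRCh38, a human build although the gene symbols are those of mouse. The annotation, the strand setting and any filter on low genes are not given in the sources used here. The lowest mean of both libraries among genes with whole reads was 29.5 reads. The deposited values are RPKM per gene, a unit read from the values themselves, since the authors' table does not name it. Another 3 columns hold the authors' own comparison (log fold change, p-value and FDR) and were not used. A further deposited column, the mean log2 CPM per gene, served only to find the library totals and exon lengths, which gave whole reads for 14196 of 14197 genes within 0.001 reads.

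Log2 ratios were computed with 0.1 RPKM added. Counting intervals (95%, Clopper-Pearson, scipy 1.17.1) came from whole reads. The recovery and the intervals were tested on simulated data. No count test was run, because each condition has 1 library. Coordinates come from GENCODE M21, and promoter sequences from the RefSeq table, which had an entry for 48 of the 56 genes. The genes and lists were chosen with earlier results of these data known. Both RPKM values were printed for genes past 1.5-fold and, per group, for the 2 highest, the 2 lowest and the most abundant. Alternatives covered the added amount, the scaling, a filter on low values, the threshold and the mean in place of the median.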

Additional observations from a re-analysis of the deposited data

How the results depend on the processing

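None of the 56 genes passed 2-fold as reported. With no added amount 2 did (1 of them interferon-stimulated), as with TMM scaling of whole reads after adding 0.5 reads. The count was also 2 when the threshold was 1.5-fold. The count was 0 in the other settings, and 0 genes were lower beyond the threshold in every setting run. The median log2 fold change of the members ranged from 0.072 to 0.14, where the filter on low values left 49 genes. The mean in place of the median was 0.15. The value ranged from 0.043 to 0.11 for antigen presentation and from 0.16 to 0.23 for interferon-stimulated genes. The difference of the medians of these groups stayed below 0, from -0.16 to -0.070. Scaling and centring shift every gene by nearly the same amount, so those settings could hardly move this difference. Under TMM scaling 4 of 56 genes changed sign, under centring 5 and under upper-quartile scaling 3, all of them among Jak2, Tapbp, Irgm1, Samhd1 and Cd274. Counting Rigi as Ddx58 and leaving out genes with near-identical copies (H2-D1, H2-K1, H2-T23, Ifit3 and Oas1a) were settings chosen after seeing the data. No paired analysis was possible because each condition has 1 library, and for the same reason no library could be left out. Mx1 and Socs1, with 23 and 26 reads in the vehicle library, are limited by depth, and 28 of the 56 genes share annotated exonic bases with another gene.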
